A study of Drosophila melanogaster with 12 samples.

Results

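The genes described here carry the signal for fat breakdown in the fly from the hormone receptor to the oxidation of the released fatty acids. They were chosen by symbol: *AkhR*, *bmm*, *Hsl*, *Lsd-1*, *Lsd-2*, *whd*, *CG5966*, *CG4594* and *Acox57D-d*. Every probe set that the array annotation maps to 1 gene only, where that gene is a listed symbol, was taken. This gave 10 probe sets of 18769, for 8 of the 9 genes, because no probe set carries the symbol *Hsl*. *AkhR* and *whd* have a pair of probe sets each. The symbols were listed with *loj* and control differences of these same arrays known, so for the listed genes those differences, and how they differ between body parts, are given as a description without a p value.

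*loj* encodes a p24 protein, a family that works in transport between the endoplasmic reticulum and the Golgi. The *loj* females carried the alleles loj 00898 and loj 04026 over each other. Each control sample combined 6 loj 00898/+ and 6 loj 04026/+ females, so the controls also carry a mutant allele, in heterozygous form. All were collected as virgins, mated on day 4 with a wild-type male and dissected 3 h later into abdomen and head/thorax, with tissue of 12 females per sample. Total RNA of 3 samples per genotype and body part was hybridized to 12 Affymetrix Drosophila Genome 2.0 arrays. The abdomen holds ovaries, gut and fat, and the head/thorax holds the brain, flight muscle and the fat around the head. With 3 arrays per group, the number of arrays limits the precision of every value. No source used here says whether any control sample shares a collection or extraction day with a *loj* sample.

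Insects store triglyceride in droplets in the fat body, a tissue that combines roles of liver and adipose tissue. When energy is needed, the corpora cardiaca release adipokinetic hormone, which acts on the receptor AkhR of fat body cells and raises the activity of lipases at the droplet surface. The perilipins Lsd-1 and Lsd-2 coat the droplet and control access to it, the lipase Brummer, encoded by *bmm*, works beside the hormone pathway, and the fatty acids released are broken down by beta-oxidation in mitochondria and peroxisomes.

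The labels were checked first. The *loj* probe set averaged 1024 ± 90.1 (SD, n = 3) in control abdomens and 1135 ± 93.9 in control head/thorax, and was not above background in either *loj* group, at least 11.8-fold and 6.97-fold lower. Background was set on each array at the 95th percentile of its 27 *Bacillus subtilis* controls. This level was 91.2 to 130.6 on control abdomen arrays, 76.8 to 108.2 on *loj* abdomen arrays, 205.6 to 255.9 on control head/thorax arrays and 126 to 235.7 on *loj* head/thorax arrays. Where 1 group is not above it, a fold is given only as a bound against that level. All 4 photoreceptor markers were above background on every head/thorax array and on no abdomen array, and the 8 ovary and eggshell markers were not above background on any head/thorax array. The summed intensity of 8 fat body markers ran from 45700 to 49140 in abdomens of control and from 44560 to 46050 in those of *loj* females, and from 73710 to 75900 in control and from 76620 to 78020 in *loj* head/thorax, where the *loj* arrays lay above all controls. None of these 8 markers was called in either body part, and Fbp1 was not above background in any group. The summed intensity of 7 gut markers overlapped between the body parts, at 46660 to 53830 over the abdomen arrays and 45470 to 53680 over the head/thorax arrays, and 6 of the 7 were above background on every head/thorax array. The ratio of the 3′ to the 5′ probe set of *Act5C*, a measure of RNA integrity and of labelling, was 1.33 to 1.44 on the log2 scale in control and 0.785 to 1.02 in *loj* head/thorax, and 0.758 to 0.906 and 0.672 to 0.716 in abdomen. The groups do not overlap in either body part, and the part of this ratio in the differences described next was not tested.

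Between *loj* and control head/thorax, 5 of the 10 probe sets passed the threshold used for a call, an adjusted p under 0.05 in limma and at least 1.5-fold. Both *AkhR* probe sets and *Acox57D-d* were lower, and *CG5966* and *CG4594* were higher. Of all probe sets, 1.86% passed. In abdomen *CG4594* alone passed, where 0.874% of all probe sets did. The genes were listed for such differences, so nothing is read from these counts. The 3 arrays of each genotype did not overlap for 8 of the 10 probe sets in head/thorax, against 23.8% of all probe sets, and for 4 in abdomen, against 19.5%. The median log2 difference of the 10 probe sets was -0.14 in head/thorax and -0.17 in abdomen, beside -0.0061 and -0.032 over all probe sets. The abdomen median includes the dimmer *AkhR* and *whd* probe sets, both lower in *loj* but at background in both genotypes there. The dimmer *AkhR* set is also among the 4 without overlap in abdomen. Nothing is read from these counts and medians either. In whole body parts, fewer cells of a type and less RNA per cell cannot be told apart.

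**Figure D1:**
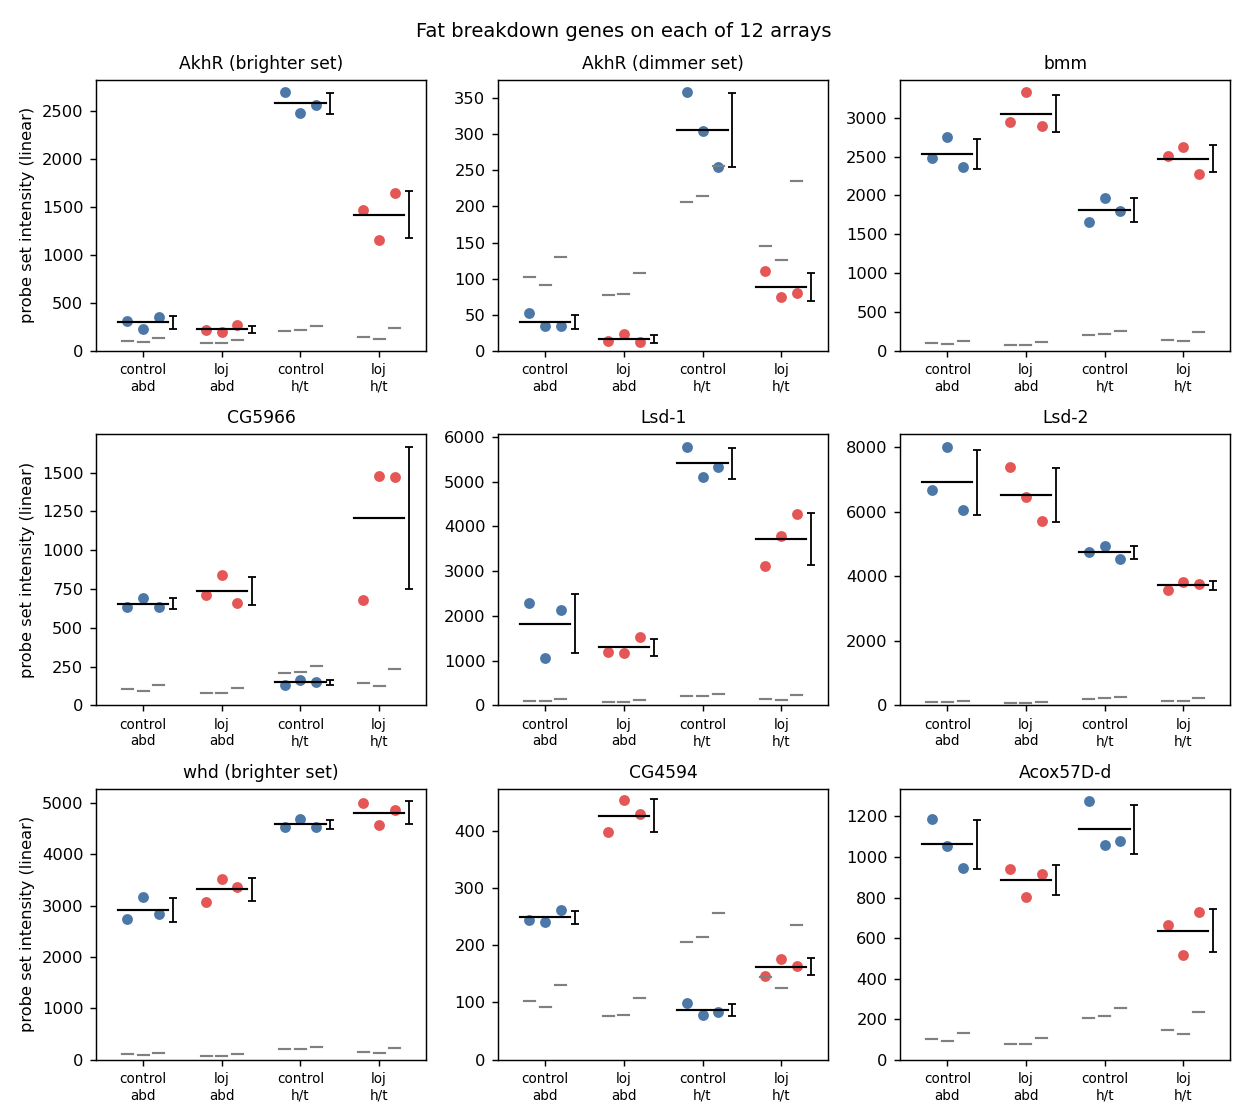
Probe set intensity (linear scale, from 0) of 9 of the 10 probe sets on each of the 12 arrays, with blue points for control, red points for *loj*, a black line for the group mean, a black bar for ± 1 SD and a gray dash for the background level of each array. The brighter *AkhR* probe set lies at 2473 to 2690 in control and 1151 to 1637 in *loj* head/thorax, and *CG5966* lies below background on the 3 control head/thorax arrays.

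*AkhR* encodes the receptor of adipokinetic hormone, a G protein-coupled receptor. The brighter of its probe sets gave 2690, 2473 and 2559 in control head/thorax and 1466, 1151 and 1637 in *loj* head/thorax. The highest *loj* array lay well under the lowest control array. The mean was 2574 ± 109.3 (SD, n = 3) in control and 1418 ± 246.1 in *loj*, 1.83-fold lower, a log2 difference of -0.87 (SE 0.13, 95% interval -1.19 to -0.56). In abdomen the same probe set gave 305.4, 226 and 355.1 in control and 217.2, 195.1 and 263.5 in *loj*. These groups overlap, and the log2 difference of -0.38 has an interval that spans 0 (-0.86 to 0.11). The *loj* difference in head/thorax differed from that in abdomen by -0.50, with an interval that also spans 0 (-1.03 to 0.040). The levels ranked from *loj* abdomen over control abdomen and *loj* head/thorax to control head/thorax, and among neighbours in this order only the abdomens overlapped.

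The dimmer probe set of *AkhR* gave 358.3, 305.2 and 255.3 in control head/thorax, of which 2 of 3 arrays were above background, and 110.4, 74.4 and 79.9 in *loj* head/thorax, none of them above it. Its level in *loj* was at least 1.87-fold lower, and the log2 difference of the measured values was -1.80 (SE 0.20). In abdomen no array of either genotype was above background, and no fold is given. Over the 12 arrays the log2 intensities of both *AkhR* probe sets correlated with r = 0.93, and with r = 0.78 once the mean of each body part was removed, a description over arrays that share the body part and genotype differences.

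The transcript of the hormone gene was measured on the same arrays, while the hormone peptide was not measured. This gene was not among the listed symbols and, like the relatives below, was looked at after its values were seen. *Akh*, the hormone gene, which is transcribed in the corpora cardiaca, gave 1234, 978.7 and 984.7 in control and 1357, 1192 and 1201 in *loj* head/thorax. The groups overlap (log2 difference 0.24, SE 0.11, 95% interval -0.029 to 0.50, limma adjusted p = 0.333). In abdomen *Akh* was not above background on any array. Whether the transcripts of receptor and ligand differ from each other in their response was not tested.

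Lipases at the droplet surface act next. *bmm* encodes Brummer, the fly relative of mammalian adipose triglyceride lipase. It gave 2488, 2752 and 2367 in control and 2942, 3328 and 2894 in *loj* abdomen, and 1661, 1974 and 1802 in control and 2512, 2618 and 2278 in *loj* head/thorax. In both body parts every *loj* array lay above every control array. The log2 difference was 0.27 (SE 0.086, 95% interval 0.057 to 0.48) in abdomen and 0.45 (SE 0.082, 0.25 to 0.65) in head/thorax, a 1.36-fold higher level that stays under the 1.5-fold minimum. *Hsl*, which encodes the hormone-sensitive lipase, was not measured by a probe set of its own.

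*CG5966* encodes a predicted triglyceride lipase and held the widest difference of the listed genes. In head/thorax it gave 133.1, 165.2 and 151 in control, all under the background level, and 680.3, 1477 and 1472 in *loj*, all above it. The level in *loj* was at least 5.08-fold higher, with a log2 difference of the measured values of 2.93 (SE 0.32, 95% interval 2.155 to 3.71). The *loj* arrays differed among themselves, with replicate 1 far under the other two, which lay close together. Replicate 1 also stood apart in the 3′ probe set of 18S rRNA, with an intensity of 4103 against 544.2 and 568.6 on the other *loj* head/thorax arrays and 410 to 507.5 on the controls, and the part of this in the *CG5966* values was not tested. Without replicate 1 the log2 difference was 3.305.

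In abdomen *CG5966* gave 634.7, 694.3 and 634.6 in control and 711.3, 838.8 and 661 in *loj*, which overlap (log2 difference 0.17, 95% interval -0.081 to 0.41). Its values in *loj* head/thorax overlapped those of *loj* abdomen, while in controls the head/thorax was the lowest of the 4 groups. Only the step from control head/thorax to control abdomen was free of overlap between neighbours in the order of levels. The *loj* difference in head/thorax exceeded that in abdomen by 2.77 on the log2 scale (SE 0.35, 95% interval 2.01 to 3.53).

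The droplet coat genes were lower in *loj* head/thorax, both by less than the 1.5-fold minimum for a call. *Lsd-1* encodes perilipin 1, through which adipokinetic hormone acts on the droplet. It gave 5776, 5109 and 5333 in control and 3104, 3776 and 4279 in *loj* head/thorax, and every *loj* array lay under the controls (log2 difference -0.55, SE 0.12, 95% interval -0.85 to -0.25). In control abdomens the values were 2296, 1065 and 2121, and in *loj* abdomens 1197, 1167 and 1519. Control replicate 2 lay under all *loj* arrays and far under its own group, so that the groups overlap (log2 difference -0.43, 95% interval -1.19 to 0.33). Without that array the difference was -0.78. The same array held the lowest value of the brighter *AkhR* probe set and the highest *bmm*, *Lsd-2*, *CG5966* and brighter *whd* values of its group. With all arrays, the *loj* difference of *Lsd-1* in head/thorax differed from that in abdomen by -0.12 (95% interval -0.87 to 0.63).

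*Lsd-2* encodes perilipin 2, which shields stored fat from lipases. Its head/thorax values were 4759, 4944 and 4541 in control and 3559, 3822 and 3760 in *loj*, with no overlap and little spread within either group. The log2 difference was -0.35 (SE 0.048, 95% interval -0.47 to -0.24), under the 1.5-fold minimum. In abdomen it gave 6659, 8004 and 6052 in control and 7370, 6457 and 5706 in *loj*, which overlap throughout (log2 difference -0.083, 95% interval -0.43 to 0.26). The *loj* difference in head/thorax differed from that in abdomen by -0.27, with an interval that spans 0 (-0.60 to 0.057).

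**Figure D2:**
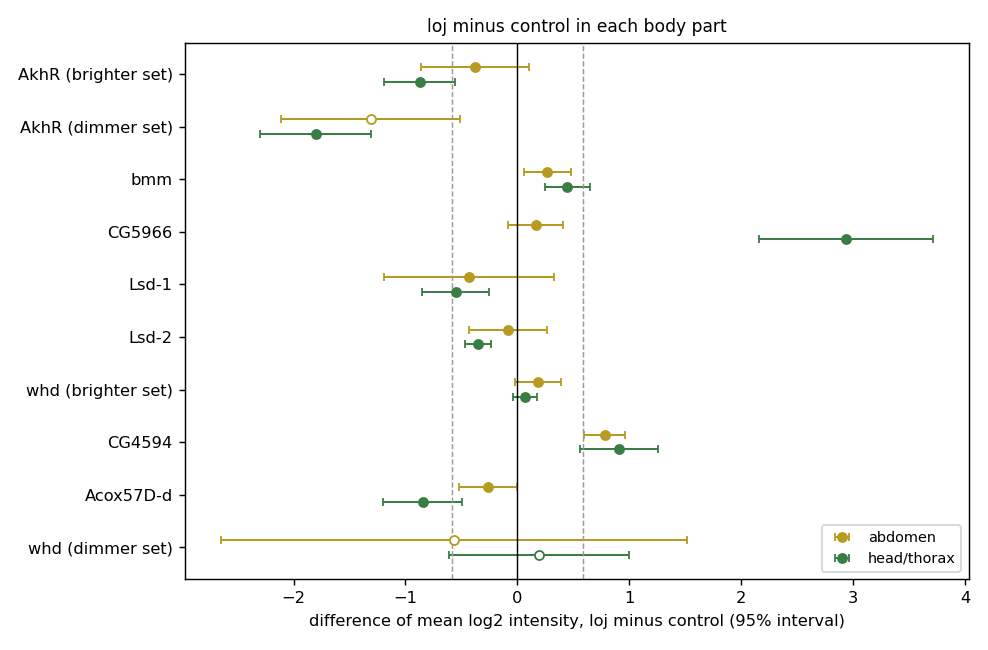
Difference of mean log2 intensity, *loj* minus control, of each of the 10 probe sets in abdomen (ochre) and head/thorax (green), with bars for the 95% interval from limma and dashed lines at a 1.5-fold difference. Open points mark probe sets at background in both genotypes, and *CG5966* in head/thorax lies farthest from 0, at 2.93.

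The genes of fatty acid oxidation did not move together. *whd* encodes carnitine palmitoyltransferase I, which admits long-chain fatty acids to the mitochondrion. Its brighter probe set gave 2738, 3171 and 2845 in control and 3080, 3517 and 3359 in *loj* abdomen, and 4543, 4680 and 4532 in control and 5004, 4579 and 4865 in *loj* head/thorax. The genotypes overlap in both body parts, with log2 differences of 0.19 (95% interval -0.017 to 0.39) and 0.070 (-0.036 to 0.18). In head/thorax this interval ends well short of a 1.5-fold difference. The dimmer probe set of *whd* was not above background on any of the 12 arrays, with intensities of 4.47 to 79.4.

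*CG4594* encodes a predicted enoyl-CoA isomerase, an enzyme that prepares unsaturated fatty acids for beta-oxidation. Its abdomen values were 244.2, 239.8 and 260.9 in control and 397.3, 453.3 and 428.2 in *loj*. The groups lie far apart relative to their spread, at 1.715-fold, a log2 difference of 0.78 (SE 0.075, 95% interval 0.60 to 0.96). On the same abdomen arrays the summed intensity of 8 ovary and eggshell markers ran from 36170 to 45870 in control samples and from 26780 to 34370 in *loj* samples, and that of 8 hemocyte markers was 1966 to 2610 and 2861 to 3080, with 0 of each list called, and their part in the *CG4594* values was not tested. In head/thorax it gave 98.4, 78.9 and 83 in control, all under background, and 146.2, 176.1 and 164.4 in *loj*, 2 of 3 above it. The *loj* arrays were again all higher, with a log2 difference of the measured values of 0.91 (SE 0.14), but no fold is given because the background level of the control arrays lies above the *loj* values. The 4 groups do not overlap with their neighbours in the order control head/thorax, *loj* head/thorax, control abdomen and *loj* abdomen.

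In the gene order of the RefSeq annotation of the assembly Release 6 plus ISO1 MT, *CG4594* lies between *CG4598* and *CG4592*, which encode predicted enzymes of the same family. These relatives were looked at after their values were seen. *CG4598* averaged 1758 ± 184.1 (SD, n = 3) in control and 1805 ± 79.7 in *loj* abdomen, a log2 difference of 0.042 (95% interval -0.17 to 0.26, limma adjusted p = 0.879). *CG4592* averaged 671.4 ± 80.2 and 648.7 ± 7.75, a log2 difference of -0.043 (-0.27 to 0.18, adjusted p = 0.883). In head/thorax their log2 differences were 0.052 and -0.021, with adjusted p of 0.787 and 0.921. *CG4594* was listed with its *loj* difference known, so nothing is read from setting it beside these neighbours. The difference between the genes was not tested.

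*Acox57D-d* encodes an acyl-CoA oxidase, the enzyme that opens beta-oxidation in peroxisomes. It gave 1277, 1058 and 1080 in control and 663.8, 519 and 728.7 in *loj* head/thorax. The *loj* level was 1.80-fold lower with no overlap (log2 difference -0.85, SE 0.14, 95% interval -1.20 to -0.49). In abdomen the values were 1189, 1053 and 947.6 in control and 941.2, 800.8 and 916.2 in *loj*. There the highest *loj* array lay just under the lowest control array (log2 difference -0.26, 95% interval -0.52 to 0.00068). The *loj* difference of *Acox57D-d* in head/thorax differed from that in abdomen by -0.59 (95% interval -0.997 to -0.18), which was not called. Its neighbour *Acox57D-p*, also an acyl-CoA oxidase gene and also chosen after its values were seen, averaged 487.2 ± 33.5 in control and 415.4 ± 73.8 in *loj* head/thorax, with overlapping arrays (log2 difference -0.24, 95% interval -0.58 to 0.095, limma adjusted p = 0.435). In abdomen the log2 difference of *Acox57D-p* was -0.23 (95% interval -0.57 to 0.11), near the -0.26 of *Acox57D-d*. The difference between these genes was not tested.

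**Figure D3:**
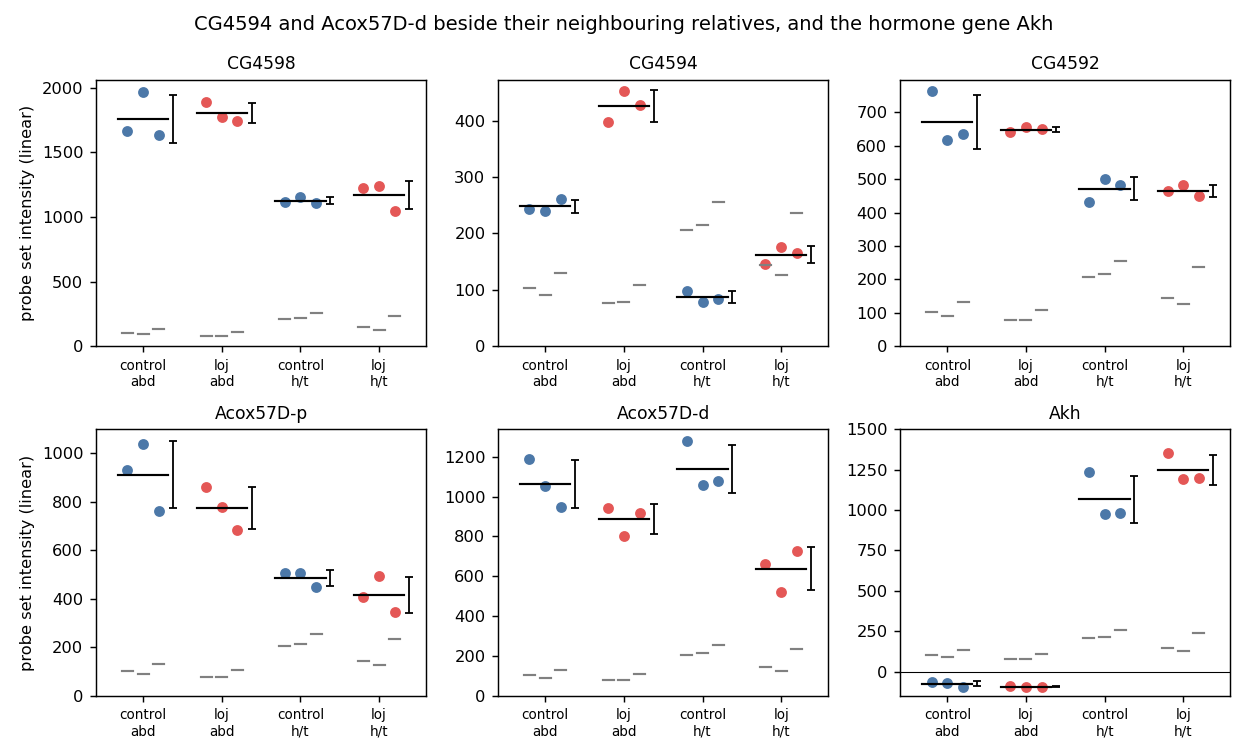
Probe set intensity (linear scale) on each of the 12 arrays of *CG4594* between its neighbours *CG4598* and *CG4592*, of *Acox57D-d* beside *Acox57D-p*, and of *Akh*, with blue points for control, red points for *loj*, black lines and bars for the mean and ± 1 SD, and gray dashes for background. The genotypes separate for *CG4594* in both body parts and overlap for *CG4598*, *CG4592* and *Akh*, whose abdomen values lie below 0.

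The genotype calls changed when single arrays were left out, over all probe sets as well as for the listed genes. Over all probe sets the 350 calls in head/thorax became 93, 157 and 123 without control replicates 1, 2 and 3. They became 395, 112 and 255 without *loj* replicates 1, 2 and 3. The 164 calls in abdomen fell to between 22 and 52. With 1 array left out at a time, the direction of each of the 9 probe sets other than the dimmer *whd* set was the same in head/thorax in every case, but the number called fell from 5 to 0 without control replicate 1 or control replicate 2, to 1 without control replicate 3 or *loj* replicate 2, and to 3 without *loj* replicate 1 or *loj* replicate 3. The log2 difference then ran from -0.99 to -0.73 for the brighter and from -1.98 to -1.68 for the dimmer *AkhR* probe set, from 2.75 to 3.31 for *CG5966*, from 0.84 to 0.9996 for *CG4594* and from -0.95 to -0.71 for *Acox57D-d*. Of the 6 cases, the call held in 2 for the brighter and 3 for the dimmer *AkhR* probe set. It held in 2 for *CG5966*, 1 for *CG4594* and 0 for *Acox57D-d*. In abdomen *CG4594* was not called with any of the 6 arrays left out, with log2 differences of 0.73 to 0.83.

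**Figure D4:**
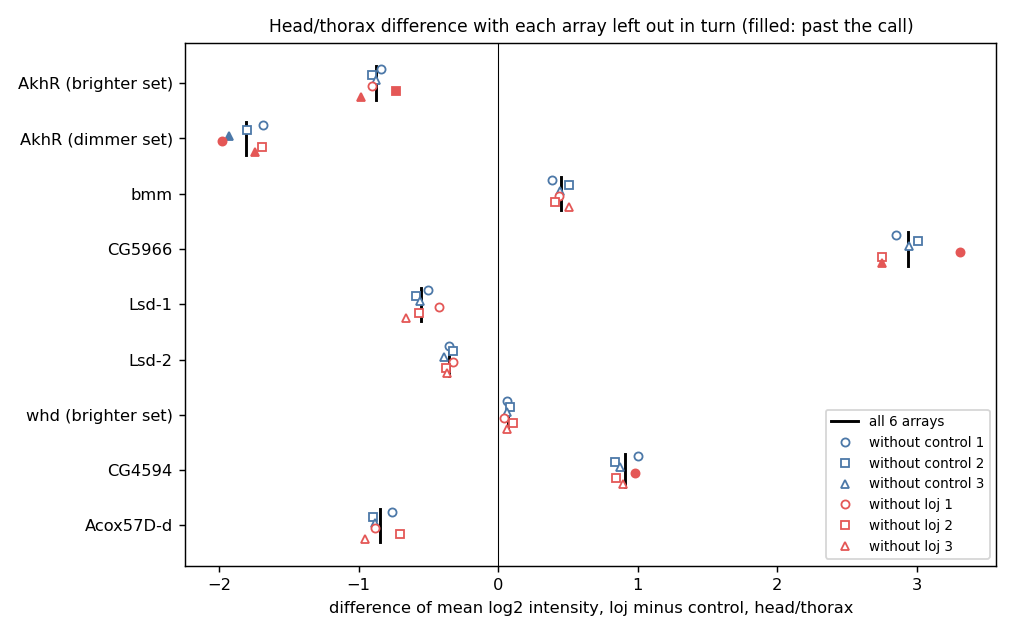
Difference of mean log2 intensity, *loj* minus control, in head/thorax for 9 probe sets, with a black line for all 6 arrays and a symbol for each array left out (blue for a control array, red for a *loj* array, filled where the probe set still passed the threshold). All symbols of a probe set lie on the same side of 0, and those of *CG5966* span 2.75 to 3.31.

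The body parts were compared with a test in controls, since the listing did not rest on that contrast as far as the rule states. However, the same control arrays stand in the *loj* differences known at the listing. The p values given here and in the next paragraph are therefore not free of the listing. In controls, 6 of the 10 probe sets were called between head/thorax and abdomen, close to the 55.6% of all probe sets. The brighter *AkhR* probe set was 8.86-fold higher in head/thorax (log2 difference 3.15, SE 0.17, limma adjusted p = 1.12e-08), with all 3 arrays above every abdomen array. *Lsd-1* was 3.12-fold higher there (log2 difference 1.64, SE 0.24, adjusted p = 7.33e-05). *CG5966* was at least 2.92-fold and *CG4594* at least 1.11-fold lower in head/thorax than in abdomen, with adjusted p of 8.15e-06 and 1.64e-07. Receptor and perilipin 1 were higher in the body part where both predicted enzymes were at background.

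The dimmer *AkhR* probe set was at least 2.84-fold higher in control head/thorax than in control abdomen, where no array was above background (log2 difference of the measured values 2.95, SE 0.27, adjusted p = 1.24e-06). The differences of the brighter *whd* probe set, *bmm*, *Lsd-2* and *Acox57D-d* were smaller and moved with the scaling of the arrays. The median probe set was 0.22 higher in head/thorax on the log2 scale as deposited, 0.15 lower after quantile normalization (-0.15) and lower still after median centring (-0.37), and 59.4%, 46.5% and 36.7% of the called probe sets were higher in head/thorax under these scalings. The brighter *whd* probe set was 1.57-fold higher in head/thorax as deposited (adjusted p = 3.05e-06), with a log2 difference of 0.65 that was 0.062 after median centring, and it was no longer called after either rescaling. *bmm* (-0.485) and *Lsd-2* (-0.53) were lower in head/thorax, under the 1.5-fold minimum as deposited and called after both rescalings. *Acox57D-d* showed a log2 difference of 0.099 as deposited (adjusted p = 0.54) and of -0.49 after median centring. The directions of *AkhR*, *Lsd-1*, *CG5966* and *CG4594* in controls were the same under each scaling.

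In *loj* females the body parts are described without a test of single genes, since the listing drew on the differences these arrays gave. Of the 10 probe sets 7 were called between the body parts, where 56.6% of all were, and 61.99%, 47.9% and 37.3% of all calls were higher in head/thorax under the same scalings. The brighter *AkhR* probe set was 6.28-fold higher in head/thorax (log2 difference 2.65, SE 0.17), and *Lsd-1* 2.87-fold. *Lsd-2* was lower in head/thorax (log2 difference -0.80, SE 0.11). *CG5966*, at background in control head/thorax, was higher in *loj* head/thorax than in *loj* abdomen by 0.64 on the log2 scale (SE 0.24), although the arrays overlap and the log2 difference was 0.013 after median centring. Of the 7 calls, the dimmer probe sets of *AkhR* and *whd* were at background in both body parts.

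**Figure D5:**
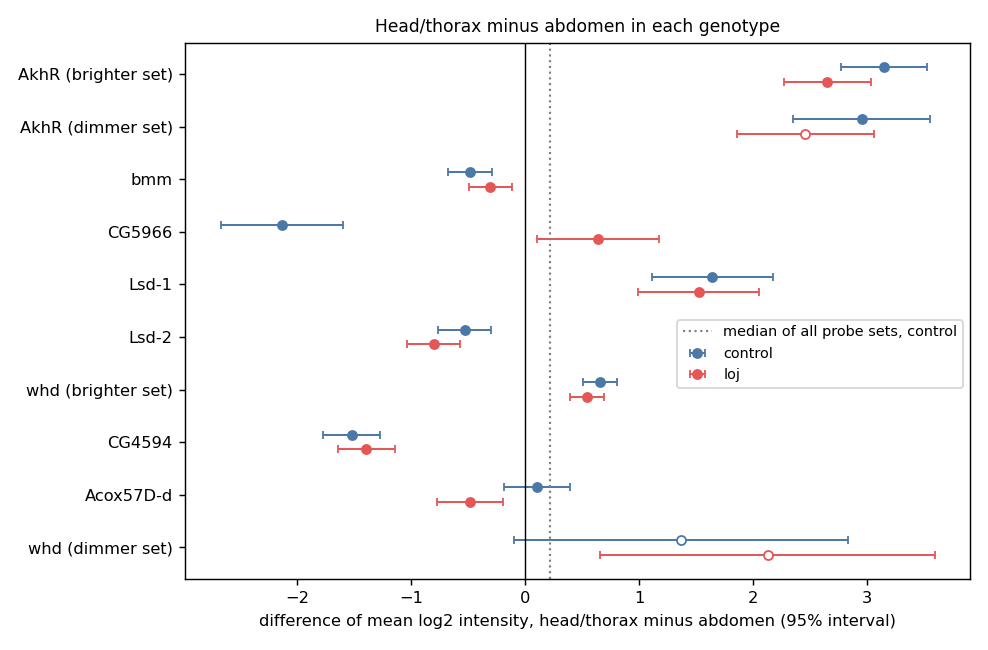
Difference of mean log2 intensity, head/thorax minus abdomen, of each of the 10 probe sets in control (blue) and *loj* (red) arrays, with bars for the 95% interval from limma, open points for probe sets at background in both body parts and a dotted line at the median of all probe sets in controls, 0.22. The intervals of control and *loj* overlap for every probe set but *Acox57D-d*, at 0.099 and -0.49, and *CG5966*, at -2.13 in control and 0.64 in *loj*.

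Other genes of the same pathways were taken from 6 lists of general knowledge, with the listed genes removed. These lists were also chosen with earlier results of these data known, which limits the p values given for their genes. Of their 128 measured genes, 0 were called in abdomen by limma, where 20 had an unadjusted p under 0.05, beside 2602 of all 18769 probe sets. A Cyber-T style test called 1, beside 572 of all probe sets. In head/thorax 1 was higher and 1 lower, with 30 at an unadjusted p under 0.05 and 7 called by the Cyber-T style test, beside 3348 and 694 of all probe sets. Over all 11981 genes, 1.05% were called in abdomen and 2.13% in head/thorax. None of the 15 genes of AKH signalling, 20 of mitochondrial and 14 of peroxisomal beta-oxidation or 24 of fat synthesis was called in either body part by limma. Their median log2 differences in head/thorax were -0.029, -0.0096, -0.054 and -0.14, beside -0.016 over all genes, and in abdomen 0.028, -0.019, -0.063 and -0.061, beside -0.031. In simulated data, changes were set into brighter probe sets. The threshold called 16% of 1.5-fold and 94% of 2-fold changes in abdomen, and 30% and 78% in head/thorax. A gene that was not called can therefore still differ.

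Among 40 genes of the lipase families, *CG18302*, a predicted lipase, fell in *loj* head/thorax from 296.8, 284 and 302.6 to 133.2, 138 and 124.1 (log2 difference -1.16, SE 0.083, limma adjusted p = 0.00369), where 1 of the 3 *loj* arrays was above background. It was called with each array left out in turn, and not when all 12 arrays shared a fit (adjusted p = 0.128). Among 16 genes of the fasting and FOXO response, the insulin receptor gene *InR* rose in *loj* head/thorax from 294.5, 269.2 and 257.2 to 443.5, 436 and 514.6 (log2 difference 0.76, SE 0.093, adjusted p = 0.0164). Its 3 *loj* arrays all lay above the controls. It was called without *loj* replicate 1 or *loj* replicate 3, and not without any of the other 4 arrays, at adjusted p up to 0.0713, nor with all 12 arrays in a fit (adjusted p = 0.0650).

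The probe sets most like the brighter *AkhR* probe set in pattern over the 12 arrays were named by Pearson correlation of log2 intensities, among 9184 compared. These were *Gnpnat*, a gene of amino sugar synthesis, with r = 0.997 and, for a further probe set, 0.9945, *CG3626* with 0.996, *jim*, a zinc finger gene, with 0.995, and *CG6912* with 0.994. The arrays share the large difference between body parts, which any gene higher in head/thorax follows. With the mean of each body part removed, *Gnpnat* again came first with r = 0.959, followed by *CG6126* with 0.950 and *CG10560* with 0.9496. Next were *Root*, the rootletin gene, with 0.9485, and *CG3626* with 0.945. *Root* was not above background on any abdomen array and was above it on 2 of 3 *loj* head/thorax arrays. The first *Gnpnat* probe set gave 1055, 1037 and 1030 in control and 763.1, 667 and 810.1 in *loj* head/thorax. It was picked for its likeness to *AkhR* on these arrays, so an order of arrays shared with *AkhR* follows from that choice. The correlations with the mean of each body part removed still hold the difference between the genotypes.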

How the data were processed

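Deposited were probe set intensities, linear in scale and in part below 0. The authors' methods derived expression by GCOS and by both models of dChip and tested it with Cyber-T, and GCOS 1.2 is named in the submitters' processing notes. No source used here states which kind was deposited or how the arrays were scaled, so quantile normalization and median centring were run as alternatives. After a floor of 1 and log2, with 183 control probe sets removed, *loj* and control were compared on the 6 arrays of each body part. Body parts and the difference of differences were compared on 4 group means of 12 arrays, taken as independent of each other. Both used limma 3.58.1 in R 4.3.3 (empirical Bayes with an intensity trend, Benjamini-Hochberg adjustment over 18769 probe sets). A call needed an adjusted p under 0.05 and 1.5-fold, and for the difference of differences the adjusted p alone. The scripts were tested on simulated data.

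The annotation gives a single gene symbol for 13646 probe sets, more than 1 for 402 and no symbol for 4721. In pathway and marker lists the brightest probe set on average stands for a gene. The genes described and the lists were chosen with earlier results of these data known. Named are all probe sets of the listed genes, *loj*, up to 4 called genes per list and body part by lowest adjusted p, and the 5 probe sets most like *AkhR* by each of the correlations, among those with a mean intensity of at least 100. Relatives outside this rule are said to be chosen after their values were seen. Each sample was a separate RNA extraction of pooled females.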

Additional observations from a re-analysis of the deposited data

Results flagged for a closer look

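The *loj* difference of *CG5966*, the predicted lipase gene, was 2.768 higher on the log2 scale in head/thorax than in abdomen (SE 0.35), and this gap between the body parts is why it is given here. The gene was listed with its *loj* differences known, so the value is a description, with no test. The difference ran from 2.58 to 3.14 with each of the 12 arrays left out in turn and from 2.54 to 2.98 under the other alternatives. The control head/thorax values behind it were all under the background level of their arrays, so its size is that of the measured values.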

How the results depend on the processing

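Of the listed probe sets, 1 was called between *loj* and control in abdomen. This became 2 with all 12 arrays in a single fit, which added the dimmer *AkhR* probe set, at background in both genotypes, and 0 without the intensity trend. It was 0 in each case with an array left out. In head/thorax the count of 5 became 3 with a floor of 32 and 2 without the intensity trend, and ran from 0 to 3 with an array left out. The calls over all probe sets also moved under these settings, as given below. The pathway list count in abdomen, 0, became 1 in the Cyber-T style test, and that in head/thorax, 2, became 7 in the Cyber-T style test and ran from 1 to 3 with an array left out. Fewer arrays in a fit leave fewer degrees of freedom, and the cause of the other shifts was not tested.

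Replicate numbers are shared by groups, but nothing in the labels pairs the samples, and deviations of same-numbered *loj* and control arrays correlated by -0.07, 0.04 and 0.12 in abdomen and by 0.07, 0.09 and 0.10 in head/thorax over 10978 probe sets. Same-numbered abdomen and head/thorax arrays correlated by 0, 0.09 and 0.17 in control and by 0.23, 0.08 and 0.25 in *loj*. Those with different numbers correlated by -0.14 to 0.08 in control and by -0.23 to -0.01 in *loj*, where all lay under the same-numbered values. Whether same-numbered body parts came from the same females is not stated, and the main fit takes them as independent. With replicate number as a block, the body part calls were 10432 in control and 10618 in *loj*, 0 listed probe sets were called in abdomen, 2 in head/thorax, and 1 pathway list gene in head/thorax.

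Directions reversed in few cases. The body part difference of *Acox57D-d* in controls was -0.49 and that of the brighter *whd* probe set in *loj* was -0.084 after median centring. The *loj* difference of *Lsd-2* in abdomen was 0.029 without control abdomen replicate 2 and 0.008426 without *loj* abdomen replicate 3, in a range down to -0.1761. The difference of differences of *Lsd-1* was 0.23 without control abdomen replicate 2, 7.294e-05 without *loj* abdomen replicate 3 and 0.004046 without *loj* head/thorax replicate 1, in a range down to -0.3239. Over all probe sets, the 164 calls in abdomen became 86 with a floor of 32, 55 without the trend, 419 with 12 arrays, 572 in the Cyber-T style test and 1 with the block, and ran from 22 to 52 with an array left out, so that the background share of calls in abdomen falls whichever array is omitted. The 350 calls in head/thorax became 228 with a floor of 32, 197 without the trend and 475 with 12 arrays. They became 694 in the Cyber-T style test and 135 with the block. With an array left out they were 93, 157 and 123 for the controls in order of number and 395, 112 and 255 for the *loj* arrays. The 95 calls for the difference of differences became 170 with a floor of 32, 144 after adding 32, 147 at the methods' threshold and 62 with the block, and ran from 54 without control head/thorax replicate 1 to 133 without *loj* head/thorax replicate 1. Leaving out dim probe sets reduced the 10444 body part calls in controls to 6741 and the 10630 in *loj* to 6730, since fewer were tested. Signal over background limits the dimmer *AkhR* probe set in both body parts, *CG4594*, *CG5966* and *CG18302* in head/thorax and the dimmer *whd* probe set in all groups. It also limits *Root* in abdomen and in *loj* head/thorax.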
